A study of Mus musculus with 6 samples.

Results

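The Notch and Delta-like genes described here are Dlk1, Dlk2, the receptors Notch1, Notch2 and Notch3, the ligand Jag1, and the target genes Hes1, Hey1 and Heyl. They were found by gene symbol among the 35727 genes of the deposited table, which holds a row for all 9. RNA sequencing covered 6 libraries of mouse undifferentiated pleomorphic sarcoma cells, 3 with a hairpin against Postn, the gene of the secreted matrix protein periostin (shPostn), and 3 with a scrambled hairpin (shSCR). Every library derives from 1 tumour line, p53 KO Ccne1 OE: mesenchymal stem cells of female C57/Bl6 p53KO mice, carrying a retrovirus that overexpresses Ccne1 together with the tracer RFP. The line was passaged through wild-type female mice, received its hairpin vector, and grew as tumours in mice, from which RFP+ cells were sorted. The sample titles call the shPostn libraries Postn-KO and the shSCR libraries Postn-WT, although a hairpin lowers a transcript and deletes nothing. The labels give no ages, and they do not say whether replicates came from separate tumours, so p-values measure only the spread between these samples, which may be technical. A difference between both hairpin-carrying populations that is unrelated to periostin cannot be told apart from one that follows its loss. The 9 genes were chosen by symbol with their log2 fold changes in shPostn against shSCR known, the high Dlk2 among them, so their differences are given as a description without a test.

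Notch receptors are single-pass membrane proteins. When a ligand of the Jagged or Delta-like families on a neighbouring cell binds, ADAM proteases and gamma-secretase cut the receptor, and the freed intracellular part joins the DNA-binding protein RBPJ and a Mastermind coactivator at target genes. Hes and Hey genes, which encode repressors of transcription, are the classical targets. Dlk1 and Dlk2 encode membrane proteins with EGF repeats like those of the Delta ligands but without the domain by which Delta and Jagged ligands engage Notch. Dlk1 is an imprinted gene known as an inhibitor of adipocyte formation from mesenchymal precursors, and Dlk2 is its closest relative.

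The promoters of Dlk2 and Notch3 are shown because these genes lie on the same chromosome and had large differences of opposite sign. RefSeq promoter windows on GRCm38.p6 run from 250 bases before a start to 50 bases after it, and 6 of the 9 members had at least 1 such window. Each is written 5′ to 3′, with capitals for the letters CACNAG (the N-box bound by Hes repressors) or GGGCGG (a GC box) on either strand.
Dlk2, upstream start, chr17:46297233-46297532, plus strand: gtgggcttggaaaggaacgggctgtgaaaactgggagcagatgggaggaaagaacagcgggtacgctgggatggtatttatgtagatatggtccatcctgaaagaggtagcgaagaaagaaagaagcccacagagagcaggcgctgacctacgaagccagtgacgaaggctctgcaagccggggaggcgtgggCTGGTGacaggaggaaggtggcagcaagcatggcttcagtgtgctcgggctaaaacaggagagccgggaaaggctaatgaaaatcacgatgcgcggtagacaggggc
Dlk2, downstream start, chr17:46297678-46297977, plus strand: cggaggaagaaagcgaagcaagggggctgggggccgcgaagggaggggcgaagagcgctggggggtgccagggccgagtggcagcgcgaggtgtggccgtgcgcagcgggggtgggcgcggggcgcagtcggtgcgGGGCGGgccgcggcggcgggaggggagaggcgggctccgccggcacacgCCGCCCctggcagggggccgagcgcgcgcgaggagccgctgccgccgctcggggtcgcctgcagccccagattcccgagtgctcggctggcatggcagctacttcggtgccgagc
Notch3, chr17:32166841-32167140, minus strand: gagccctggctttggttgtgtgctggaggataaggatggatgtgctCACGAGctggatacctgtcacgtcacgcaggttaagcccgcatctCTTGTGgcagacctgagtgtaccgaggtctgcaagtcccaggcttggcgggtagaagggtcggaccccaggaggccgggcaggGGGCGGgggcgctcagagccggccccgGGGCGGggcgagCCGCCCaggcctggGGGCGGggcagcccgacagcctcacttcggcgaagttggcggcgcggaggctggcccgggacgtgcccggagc
The upstream Dlk2 window held 1 N-box and no GC box and was 56.0% G or C. The downstream Dlk2 window held no N-box and 2 GC boxes and was 78.3% G or C, while the Notch3 window held 2 N-boxes and 4 GC boxes at 70.0%. Of all 32851 promoter windows, 42.5% held an N-box and 35.7% a GC box. The RBPJ core TGGGAA stood on either strand in 25.6% of all windows and the E-box CACGTG in 7.15%; neither stood in the windows of Dlk1, Dlk2, Notch1, Notch2, Notch3 or Jag1. These are matches of letters in short windows, and nothing about binding follows from them.

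Library totals lay between 19603269 and 20376554 counts. Values are given in CPM, a gene's counts relative to the TMM-normalised total of its library. Postn measured 217, 471 and 639 CPM in the shPostn libraries, against 4097, 3602 and 3225 CPM in the shSCR libraries (log2 fold change −3.04, SE 0.41, edgeR adjusted p = 0.0125). That adjusted p was 0.0532 without shSCR replicate 1 and 0.0542 without shSCR replicate 2. Mesenchymal transcripts were abundant, with Vim between 3059 and 4394 CPM, whereas 4 epithelial markers summed to between 0.354 and 2.25 CPM in shPostn, against 0.914 to 1.48 CPM in shSCR, most of it Cdh1 outside shPostn replicate 1. Thy1 was low, between 0.257 and 3.89 CPM. Replicate 3 of shPostn stood apart with leukocyte RNA: 6 pan-leukocyte markers summed to 35.8, 16.7 and 208 CPM in the shPostn libraries, against 49.3, 37.0 and 24.2 CPM in the shSCR libraries. Macrophage markers (7 genes) summed to between 36.5 and 778 CPM in shPostn, against 49.3 to 161 CPM in shSCR.

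Per exon length, Notch2 and Jag1 were the most abundant members and Dlk2 the scarcest detected one in control cells. As CPM per kb of annotated exon, Notch2 averaged 41.8 ± 7.15 in shPostn and 34.8 ± 1.24 in shSCR, and Jag1 38.1 ± 7.75 in shPostn and 30.5 ± 7.43 in shSCR (SD, n = 3 each). Hes1, the broadly expressed Notch target, followed with 13.5 ± 2.33 in shPostn and 18.1 ± 3.03 in shSCR. Notch1 had 5.61 ± 2.20 and Notch3 0.410 ± 0.305 CPM per kb in shPostn, against 4.31 ± 0.997 and 2.92 ± 1.28 in shSCR. The lowest levels per kb in shSCR were those of Heyl (0.207 ± 0.110 in shPostn, 1.63 ± 1.05 in shSCR), Hey1 (1.25 ± 1.58 in shPostn, 1.15 ± 0.164 in shSCR) and Dlk2 (2.99 ± 1.09 in shPostn, 0.344 ± 0.0943 in shSCR). Within shSCR the libraries of neighbours in this order overlapped for Notch2 and Jag1, for Notch1 and Notch3, for Notch3 and Heyl, and for Heyl and Hey1. Every Jag1 value lay above every Hes1 value and every Hes1 value above every Notch1 value, and every shSCR library had Dlk2 below Hey1. Among the 12819 genes tested, the shSCR mean per kb gave Notch2 a percentile of 89.9, Jag1 of 88.2, Hes1 of 79.1 and Dlk2 of 7.18. In shPostn the order by mean put Dlk2 above Hey1, Notch3 and Heyl. Exon lengths are those of GENCODE and need not match the transcripts the authors counted, so the order is approximate.

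**Figure D1:**
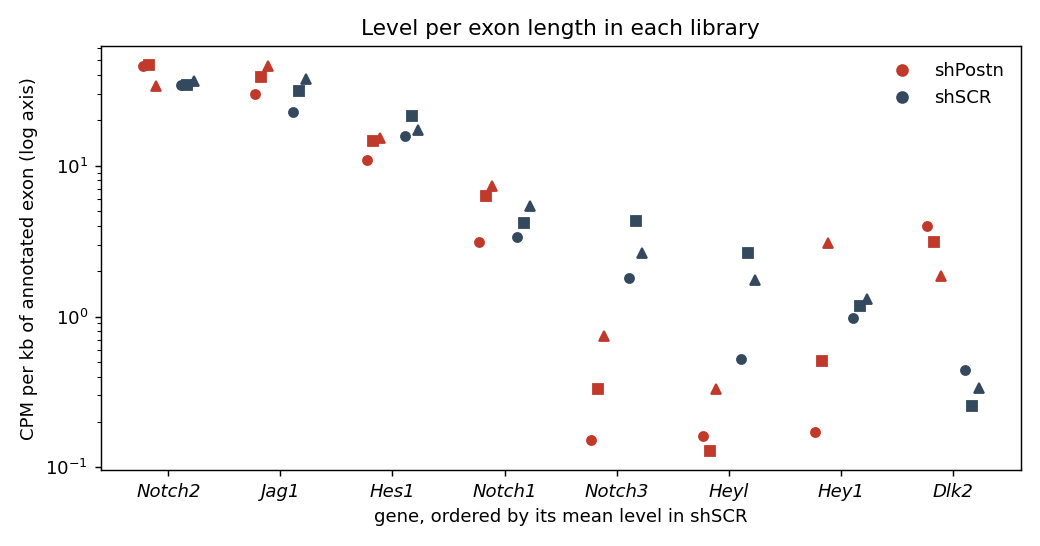
CPM per kb of annotated exon on a log axis for the 8 detected members, with 1 point per library (circle, replicate 1; square, replicate 2; triangle, replicate 3), shPostn in red and shSCR in dark blue, ordered by the shSCR mean. Notch2, Jag1 and Hes1 lie above 10 in every library, while Dlk2 stands above Notch3 and Heyl in every shPostn library and below both in every shSCR library.

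Among the Delta-like genes, Dlk1 was not detected and Dlk2 was higher in every shPostn library. Dlk1 (ENSMUSG00000040856; GRCm38 chromosome 12, 109452823 to 109463336, plus strand) had 0 counts in each library, which allows up to 3 counts, or between 0.147 and 0.153 CPM. This limit covers counting error only, and no fold change or test exists for the gene. Dlk2 (ENSMUSG00000047428; chromosome 17, 46297421 to 46303271, plus strand) measured 8.47, 6.57 and 3.90 CPM in the shPostn libraries, against 0.935, 0.537 and 0.711 CPM in the shSCR libraries. Every shPostn library was above every shSCR library, and the lowest shPostn value belonged to the leukocyte-rich replicate 3. Group means were 6.31 ± 2.30 CPM in shPostn and 0.728 ± 0.199 CPM in shSCR (SD, n = 3 each; log2 fold change 3.11, SE 0.37). Behind them stand 373 counts over the shPostn libraries and 44 over the shSCR libraries, a ratio of 8.63 with a 95% exact Clopper-Pearson interval of 6.30 to 12.1 for counting error. Leaving out any 1 library gave log2 fold changes between 2.84, without shPostn replicate 1, and 3.36, without shPostn replicate 3. In bulk RNA, fewer cells of a type and less RNA per cell cannot be told apart, here and for each gene that follows.

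The 3 Notch receptors differed from each other in how they stood between the groups. Notch1 (ENSMUSG00000026923; chromosome 2, 26457903 to 26516663, minus strand) measured 44.7, 89.9 and 105 CPM in shPostn, against 48.3, 59.2 and 76.4 CPM in shSCR. The groups overlapped, with the lowest of all 6 values in shPostn replicate 1 (means 79.8 ± 31.3 CPM in shPostn and 61.3 ± 14.2 CPM in shSCR, SD, n = 3 each; log2 fold change 0.38, SE 0.35). Its log2 fold change was 0.14 without shPostn replicate 3 and 0.67 without shPostn replicate 1. Notch2 (ENSMUSG00000027878; chromosome 3, 98013527 to 98150361, plus strand) measured 491, 499.6 and 362 CPM in shPostn, against 368, 368 and 391 CPM in shSCR. Its shPostn replicates 1 and 2 lay above every shSCR library and replicate 3 below them (451 ± 77.1 CPM in shPostn, 375 ± 13.4 CPM in shSCR; log2 fold change 0.26, SE 0.13). Without shPostn replicate 3 the Notch2 log2 fold change was 0.40 (SE 0.07).

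Notch3, the receptor prominent in mural cells of vessels, was much lower in shPostn. Notch3 (ENSMUSG00000038146; chromosome 17, 32120820 to 32166852, minus strand) measured 1.23, 2.68 and 6.04 CPM in shPostn, against 14.5, 34.9 and 21.4 CPM in shSCR. No shPostn library reached the lowest shSCR library, and both groups varied widely within themselves. The means were 3.32 ± 2.47 CPM in shPostn and 23.6 ± 10.4 CPM in shSCR (SD, n = 3 each; log2 fold change −2.83, SE 0.63), so shPostn stood at 14.0% of shSCR. Counts were 198 over the shPostn libraries and 1432 over the shSCR libraries, the shSCR rate being 7.10 times that of shPostn (95% exact interval 6.12 to 8.29, counting error only). With 1 library left out the log2 fold change lay between −3.59, without shPostn replicate 3, and −2.43, without shSCR replicate 2. Of the summed level per kb of the 4 Notch receptors, Notch3 made up 0.312% to 1.78% in shPostn and 4.56% to 10.1% in shSCR, while Notch2 made up 79.8% to 93.1% in shPostn and 79.9% to 86.6% in shSCR.

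Among the listed markers of vessel cells, the pericyte genes Pdgfrb and Cspg4 were abundant and most others were at trace levels. Mesenchymal cells express both genes too, so their levels do not tell which cells they came from. The pericyte list of 6 genes summed to between 706 and 976 CPM in shPostn, against 909 to 1174 CPM in shSCR, nearly all of it from those 2 genes. The other 4, Rgs5, Kcnj8, Abcc9 and Myh11, were under 1 CPM in every library and summed to between 0.708 and 0.849 CPM in shPostn, against 0.558 to 1.12 CPM in shSCR. Of these, Rgs5 was higher in every shPostn library (0.607 to 0.718 CPM in shPostn, 0.197 to 0.537 CPM in shSCR), Kcnj8 was lower in each (0 in shPostn, 0.0508 to 0.391 CPM in shSCR), and the ranges of Abcc9 and Myh11 overlapped. Of 8 endothelial markers 6 were under 1 CPM in every library, and the list summed to between 1.08 and 6.44 CPM in shPostn, against 2.41 to 4.57 CPM in shSCR. The part of vessel cells in the Notch3 difference was not tested.

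Jag1, the membrane ligand that can signal to all Notch receptors, did not separate the groups. Jag1 (ENSMUSG00000027276; chromosome 2, 137081456 to 137116644, minus strand) measured 175, 224 and 266 CPM in shPostn, against 132, 183 and 218 CPM in shSCR. The ranges overlapped widely, with means of 222 ± 45.2 CPM in shPostn and 178 ± 43.3 CPM in shSCR (SD, n = 3 each; log2 fold change 0.32, SE 0.22). The log2 fold change of Jag1 was 0.17 without shPostn replicate 3, and it ran from 0.14, without shSCR replicate 1, to 0.49, without shSCR replicate 3.

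Of the Hes and Hey target genes, Heyl and Hes1 were lower in every shPostn library than in any shSCR library, and Hey1 only in shPostn replicates 1 and 2. Heyl (ENSMUSG00000032744; chromosome 4, 123233556 to 123249875, plus strand) measured 0.821, 0.657 and 1.70 CPM in shPostn, against 2.66, 13.4 and 8.88 CPM in shSCR. All shPostn values were below all shSCR values, yet the shSCR libraries themselves spanned 5.04-fold. Means were 1.06 ± 0.560 CPM in shPostn and 8.31 ± 5.39 CPM in shSCR (SD, n = 3 each; log2 fold change −2.96, SE 0.68). The counts were few, 63 over the shPostn libraries and 503 over the shSCR libraries, with a shSCR rate 7.84 times that of shPostn (95% exact interval 6.03 to 10.4, counting error only). Leaving out 1 library gave log2 fold changes from −3.48, without shPostn replicate 3, to −2.44, without shSCR replicate 2. Heyl lies on chromosome 4, whose tested genes had a median log2 fold change of −0.15.

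Hes1 (ENSMUSG00000022528; chromosome 16, 30064384 to 30067796, plus strand) measured 22.1, 29.5 and 30.9 CPM in shPostn, against 31.8, 43.8 and 35.1 CPM in shSCR. The groups did not overlap, but the highest shPostn library and the lowest shSCR library were less than 1 CPM apart. Its means were 27.5 ± 4.75 CPM in shPostn and 36.9 ± 6.17 CPM in shSCR (SD, n = 3 each; log2 fold change −0.43, SE 0.17; −0.52 without shPostn replicate 3). Hey1 (ENSMUSG00000040289; chromosome 3, 8663359 to 8667256, minus strand) measured 0.564, 1.67 and 9.99 CPM in shPostn, against 3.20, 3.81 and 4.26 CPM in shSCR. Replicates 1 and 2 of shPostn were below every shSCR library and replicate 3 above every one, so the shPostn values spanned 17.7-fold and the log2 fold change was 0.12 with an SE of 0.97. Without shPostn replicate 3 the Hey1 log2 fold change was −1.74 (SE 0.42), and with the pan-leukocyte level as a covariate it was −0.96 (SE 0.70). That library also held the most leukocyte RNA, and the part of leukocytes in the high Hey1 value was not tested.

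**Figure D2:**
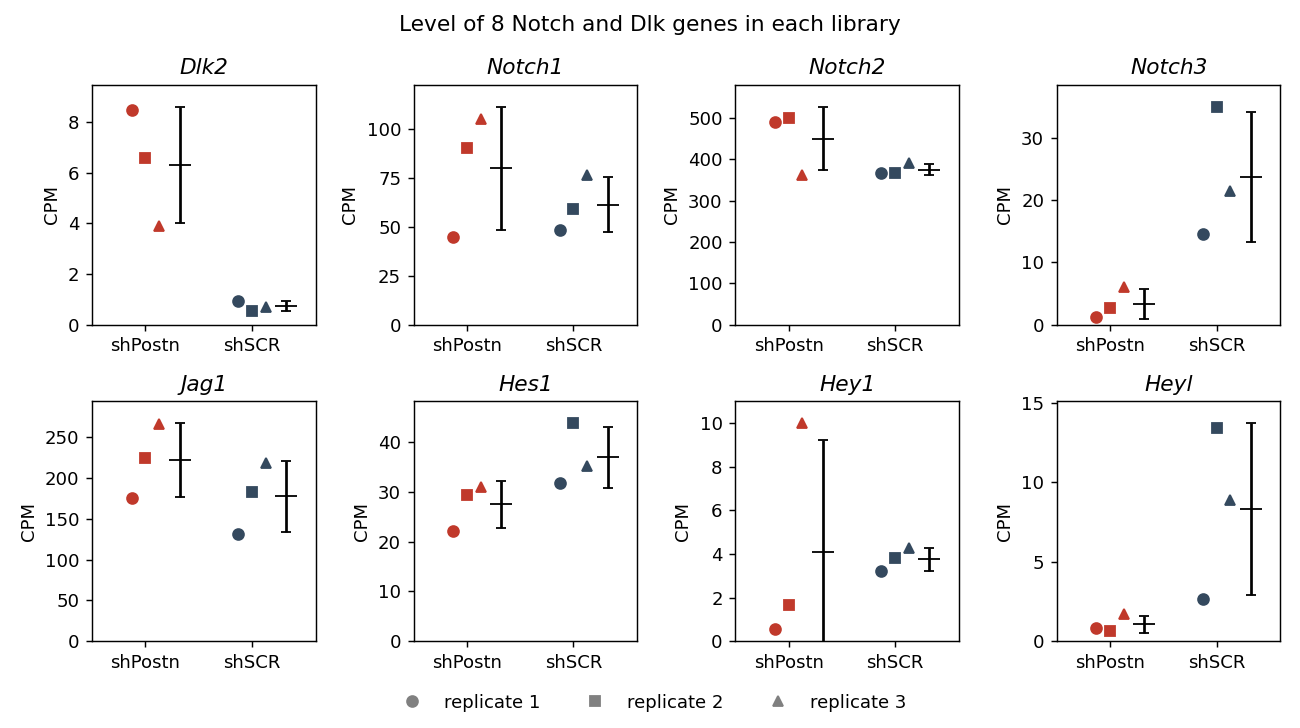
CPM of the 8 detected members in each library, shPostn at left and shSCR at right of each panel, with the mean and SD of 3 libraries as a black bar (cut at 0 for Hey1 in shPostn). Dlk2 is higher and Notch3, Hes1 and Heyl are lower in every shPostn library than in any shSCR library, and Hey1 in shPostn runs from 0.564 to 9.99 CPM.

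Over the members, 8 of 9 had enough counts for the fit across all genes, Dlk1 being the exception. Of these 8, 2 passed the adjusted threshold of 0.05, Dlk2 as higher and Heyl as lower, while 10.1% of all 12819 genes tested passed it in either direction. The shPostn and shSCR libraries were fully separated for 4 members, 1 higher and 3 lower, against 33.6% of all genes tested; since these genes were chosen with the contrast known, nothing is read from either count. The median log2 fold change of the 8 was 0.19, with 5 positive and 3 negative, against 0.01 over all genes tested. Heyl was past the threshold in only 1 of the 6 fits without 1 library, that without shSCR replicate 1, and in 5 of the 10 other settings. Notch3 was not past it with all libraries in the main fit. It passed in 1 of the 6 fits without 1 library and in 2 of the 10 other settings. Dlk2 passed in all 6 and all 10. All these fits reuse the same libraries and genes chosen with the contrast known, so nothing is read from these passes either.

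**Figure D3:**
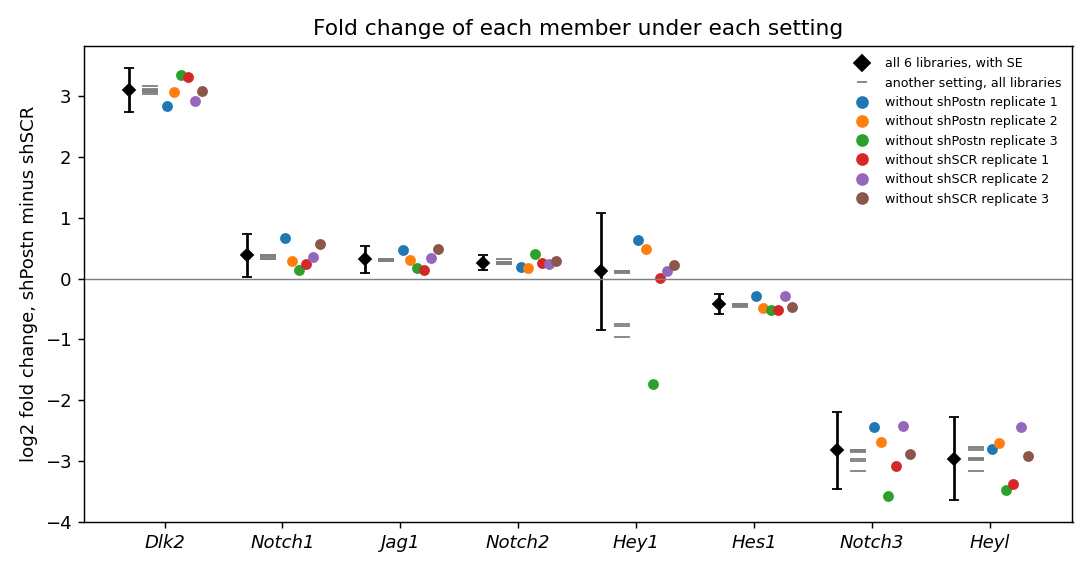
Log2 fold change, shPostn minus shSCR, of each fitted member: black diamonds with SE bars for all 6 libraries, grey ticks for the other settings with all libraries, coloured points for fits without 1 library. Dlk2 stays between 2.84 and 3.36, Notch3 between −3.59 and −2.43, Heyl between −3.48 and −2.44, while Hey1 spans −1.74 to 0.63.

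Across libraries the members followed different patterns. In the 3 shPostn libraries, replicate 1 had the least remaining Postn and replicate 3 the most. Notch1, Notch3, Jag1, Hes1 and Hey1, 5 of the 8, had the same order as Postn, which held for 18.2% of all genes tested. Dlk2 had the reverse order, as did 22.5% of all genes tested. With 3 libraries this is a description noticed after the values were seen, and leukocyte RNA and collagen also differed among them: Col1a1 measured 5192, 9104 and 13353 CPM in the same libraries. Over all 6 libraries, the log2 CPM of Notch3 had a Pearson r of 0.94 with Heyl, 0.93 with Hes1 and −0.98 with Dlk2, where the points share the contrast by which these genes were chosen. Among 9945 other genes with a mean of at least 5 CPM, those most like Dlk2 over the 6 libraries were Tle3 (r = 0.999), Schip1 (r = 0.998) and Nacc2 (r = 0.998). Those most like Notch3 were Tbcd (r = 0.998), Smpd1 (r = 0.992) and Svil (r = 0.992). These are the highest of many correlations over 6 points that share the same contrast, so no link between genes is read from them.

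Other genes of the pathway passed the test about as often as genes in general. The deposited data hold 84 other Notch pathway genes, of which 68 were tested; 7 rose, 2 fell and 59 did not pass, a share of 13.2% called, against 10.1% of all genes tested, of which 4.61% rose and 5.53% fell. The largest absolute log2 fold change among the 9 was 0.86, and the median over the 68 was 0.10, against 0.01 over all genes tested. Of the 7 rises 4 were on chromosome 12, whose 468 tested genes had a median of 0.39 on the log2 scale, and there 4 of 5 tested pathway genes rose. Outside chromosome 12, 3 of 63 rose and 2 fell. With each chromosome's median taken out of the fit, 2 pathway genes rose and 2 fell. Of the 7 rises Epn1 alone still passed, the other being Mib1, a ubiquitin ligase of Notch ligands on chromosome 18, whose log2 fold change was −0.19 before (edgeR adjusted p = 0.0764) and 0.26 after (edgeR adjusted p = 0.0466). Single libraries moved the total of 9: it was 11 without shPostn replicate 3, 7 without shPostn replicate 1, 3 without shPostn replicate 2, 2 without shSCR replicate 1 and 1 without shSCR replicate 3. Without shSCR replicate 2, 0 passed in edgeR, with 18 at an unadjusted p under 0.05; DESeq2 with all libraries called 17.

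Adam17, Snw1 and Numb, all on chromosome 12, rose. Adam17, a protease that sheds membrane proteins, averaged 102 ± 0.214 CPM in shPostn and 84.7 ± 4.42 CPM in shSCR (SD, n = 3 each; log2 fold change 0.26, edgeR adjusted p = 0.0364). With chromosome medians taken out its log2 fold change was −0.13 (edgeR adjusted p = 0.258). Adam10 and Furin, proteases of the same step, and the gamma-secretase subunit genes Ncstn, Aph1a and Psenen did not pass. Snw1, a cofactor at RBPJ and a splicing factor, rose (130.3 ± 4.07 CPM in shPostn, 108 ± 4.10 CPM in shSCR; log2 fold change 0.27, edgeR adjusted p = 0.0325), as did Numb, which promotes removal of Notch from the membrane (25.7 ± 3.33 CPM in shPostn, 18.0 ± 1.90 CPM in shSCR; log2 fold change 0.52, edgeR adjusted p = 0.0416). With chromosome medians out, Snw1 stood at −0.12 (adjusted p = 0.273) and Numb at 0.13 (adjusted p = 0.58).

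Outside chromosome 12, 7.94% of the 63 tested pathway genes passed, a share below the 10.1% of all genes tested. The calls lay in several roles. Of 8 tested genes of ligand endocytosis 1 rose, as did 1 of 14 corepressors and 1 of 4 other targets, and 1 of 8 glycosylation genes fell. Among 11 tested turnover genes, 1 fell, and the 1 that rose was Numb on chromosome 12. Epn1, an endocytic adaptor used by ligand-presenting cells, rose to 44.1, 34.0 and 45.9 CPM in shPostn, against 24.7, 24.3 and 19.2 CPM in shSCR (log2 fold change 0.86, SE 0.15, edgeR adjusted p = 0.0149). Tle3, a Groucho-type corepressor used by Hes proteins, rose to 188 ± 7.96 CPM in shPostn, against 158 ± 2.78 CPM in shSCR (log2 fold change 0.25, edgeR adjusted p = 0.0409). Bhlhe41, a repressor related to Hes proteins, rose to 27.0 ± 2.17 CPM in shPostn, against 20.4 ± 1.64 CPM in shSCR (log2 fold change 0.40, edgeR adjusted p = 0.0411). Pofut1, which adds O-fucose to Notch EGF repeats, fell to 48.8 ± 2.96 CPM in shPostn, against 61.2 ± 1.63 CPM in shSCR (log2 fold change −0.33, edgeR adjusted p = 0.0241). Aak1, a kinase of clathrin adaptors, fell to 68.1 ± 7.39 CPM in shPostn, against 98.1 ± 5.15 CPM in shSCR (log2 fold change −0.53, edgeR adjusted p = 0.0155). None of these 8 named genes passed in the fit without shSCR replicate 2, where their edgeR adjusted p ran from 0.0669 for Epn1 to 0.158 for Tle3. Over the 6 fits without 1 library, Epn1 and Aak1 passed in 4, Pofut1, Snw1 and Numb in 2, and Adam17, Tle3 and Bhlhe41 in 1. With chromosome medians taken out, the edgeR adjusted p was 0.0699 for Tle3 and 0.0507 for Bhlhe41.

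Other receptors, ligands and the DNA-binding factor did not pass. Of the other receptors and ligands, Dll1 averaged 0.997 ± 0.491 CPM in shPostn and 1.64 ± 1.08 CPM in shSCR, and Jag2 0.790 ± 0.311 CPM in shPostn and 0.611 ± 0.0457 CPM in shSCR (SD, n = 3 each). Notch4, known from endothelium, reached 2.90 CPM in shPostn replicate 3, against 0.733 CPM at most in shSCR; its log2 fold change of 1.40 was 0.04 without that library. Dll3 and Dll4 were too scarce to be tested. Of the other EGF-repeat ligands and matrix partners, Mfap2, a microfibril protein that binds Jagged, averaged 37.1 ± 12.5 CPM in shPostn and 62.4 ± 13.6 CPM in shSCR (edgeR adjusted p = 0.185), and Cntn1 stayed under 1 CPM throughout. Rbpj, the pathway's DNA-binding factor, averaged 313 ± 33.8 CPM in shPostn and 360.3 ± 44.5 CPM in shSCR (edgeR adjusted p = 0.311). Among 10 other target genes, Hes2, Hes5, Hey2 and Helt had 0 counts in every library.

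**Figure D4:**
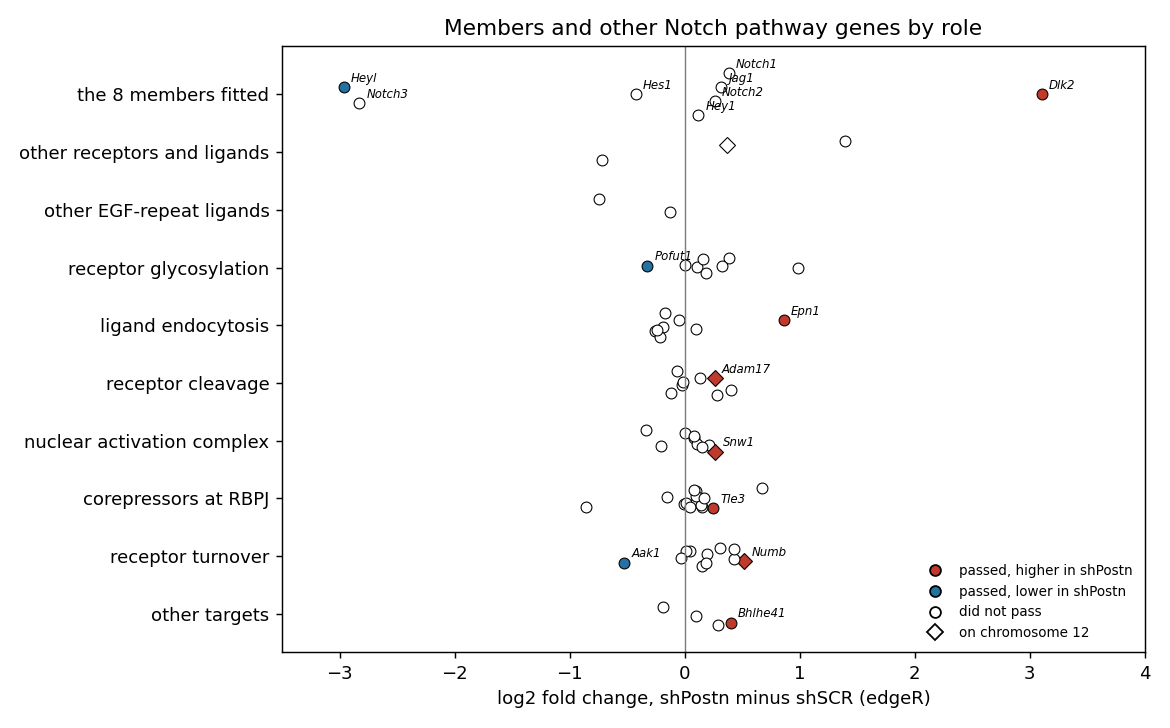
Log2 fold change, shPostn minus shSCR, for the 8 fitted members (top row) and other tested Notch pathway genes by role, with filled points for those past the edgeR adjusted threshold of 0.05 and diamonds for genes on chromosome 12. Dlk2, Heyl and Notch3, chosen with their differences known, lie beyond 2.8 in size, Notch3 without passing. In the other roles the largest difference of a called gene is that of Epn1 (0.86), and of a gene not called that of Notch4 (1.40).

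Genes near Dlk2 and Notch3 had medians near that of all genes, and those near Heyl had one near the −0.15 of chromosome 4. Single large differences stood among them. The counts of rises and falls below stand against 10.1% of all genes tested that passed, 4.61% as rises and 5.53% as falls. Within 1 Mb, the median over 40 tested neighbours of Dlk2 was 0.01 in log2 fold change, with 1 rise and 3 falls; of a list of 10 tested genes near it, Tjap1 rose (log2 fold change 0.33, edgeR adjusted p = 0.0182) and Gtpbp2 fell (−0.44, edgeR adjusted p = 0.0384). Each of these calls, and that of Yy1 given next, ended without shPostn replicate 2 and without any 1 of the 3 shSCR libraries, where the edgeR adjusted p lay between 0.0558 for Yy1 and 0.133 for Gtpbp2. Log2 fold changes of the Dlk2 neighbours ran from −2.67 for Ptk7 to 0.63. Notch3 had 24 such neighbours with a median of −0.06, of which 1 fell, and they ran from −4.91 for Cyp4f40 to 0.23. Heyl had 14 with a median of −0.13, of which 1 rose and 2 fell, and they ran from −0.83 to 1.13. Around Dlk1, 6 tested neighbours had a median of 0.41, close to that of chromosome 12 as a whole, and 2 rose and 0 fell. In its imprinted locus Rtl1 and Dio3 were at or near 0, while Meg3, Rian, Mirg and Dio3os had no row under those symbols. Of 3 listed flanking genes that were tested, Yy1 alone rose (log2 fold change 0.33, edgeR adjusted p = 0.0191). With chromosome medians taken out the log2 fold change of Yy1 was −0.06.

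Adipogenic genes, listed because Dlk1 restrains adipocyte formation, included both scarce and abundant transcripts. Of 14 listed genes 8 were tested and 1 passed (12.5%, against 10.1% of all genes tested), the transcription factor gene Klf15, which fell. Over the 8, the log2 fold change had a median of 0.05 and ran from −5.88 for Klf15 to 1.94. Klf15 had 1, 1 and 0 counts in the shPostn libraries, against 23, 85 and 35 counts in the shSCR libraries (edgeR adjusted p = 0.00878). Pparg, the master regulator of adipocyte formation, was at or under 0.300 CPM in every library, and Adipoq had 0 counts in all. Sox9, a chondrogenic factor linked to Dlk1 in mouse precursor cells, averaged 67.1 ± 8.35 CPM in shPostn and 55.9 ± 2.98 CPM in shSCR (edgeR adjusted p = 0.133).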

How the data were processed

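RNA of 6 libraries was extracted with TRIzol and made into strand-specific DNBSEQ mRNA libraries, per the labels. The authors deposited estimated counts per Ensembl gene, for which the submitters' processing notes name Salmon and the mm10 build; their versions and the annotation were not given in the sources used here. Every deposited value was a whole number, and libraries held 19603269 to 20376554 counts. IDs were matched to GENCODE M21 on GRCm38, and 35493 had a symbol and position.

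Genes were filtered with filterByExpr (minimum count 10) and scaled by TMM, and shPostn was compared with shSCR by the robust quasi-likelihood F-test of edgeR 4.0.16 in R 4.3.3, adjusted by Benjamini-Hochberg over 12819 genes at a threshold of 0.05. The SE is the log2 fold change over the square root of F. Tested on simulated data (12819 genes, 200 changed), the test made 158 calls, 10 of them false. Of genes changed 2-fold 61% were found, and of those changed 4-fold 87%. The simulation gave both groups the same spread per gene, whereas the real shPostn libraries differed more from each other than the shSCR libraries did. These rates therefore describe a cleaner setting than the data. Counting intervals at 95% and floors of 3 counts cover counting error only. Correlations used log2(CPM + 0.5).

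The members and gene lists were chosen with earlier results of these data known. The rule named the 9 members, Postn, up to 4 called genes of each list or else its 2 most abundant, and the 3 genes most like Dlk2 and Notch3; further list members were picked with their values in view. The result of 1 gene enters the counts but is not reported or plotted here. Alternatives were other composition factors (relative log expression, upper quartile, none), DESeq2 1.42.0, a 1 CPM minimum in 3 libraries or no count filter, limma-voom 3.58.1, a replicate block, a pan-leukocyte covariate, chromosome medians taken out, and each library left out. Figures used matplotlib 3.10.9.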

Additional observations from a re-analysis of the deposited data

How the results depend on the processing

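The count of genes that passed the test was 1300 in the main edgeR analysis and 1973 with DESeq2, 735 with the replicate block, 2148 with the leukocyte covariate and 640 with chromosome medians taken out; without 1 library it ranged from 307 to 2220. Notch pathway genes other than the members numbered 9 (7 rose, 2 fell). They numbered 17 with DESeq2 (11 rose, 6 fell), 3 with the replicate block (1 rose, 2 fell), 14 with the leukocyte covariate (11 rose, 3 fell) and 4 with chromosome medians taken out (2 rose, 2 fell). Without 1 library the total ranged from 0 to 11, rises from 0 to 8 and falls from 0 to 3. Other composition factors, limma-voom and either count filter gave between 9 and 10. Adam17, Snw1 and Yy1, on chromosome 12, turned to log2 fold changes of −0.13, −0.12 and −0.064 with chromosome medians taken out, and Mib1, on chromosome 18, turned to 0.26, by the construction of that setting. Same-numbered libraries share only a number, and their deviations correlated at −0.07, −0.13 and −0.44, so calls lost under the block do not speak to effect size; Postn had an adjusted p of 0.0592 there. Hey1 was negative with limma-voom (−0.78), the replicate block (−0.75) and the leukocyte covariate (−0.96); the cause was not tested. Depth limits Dlk1, Dlk2, Hey1 and Heyl, which rest on 0 to 274 counts per library. It also limits Notch3 in shPostn, which rests on 24 to 121 counts per library there.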
